A study of Mus musculus with 74 samples.

Results

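DNA replication and S-phase genes are described here in 74 single cells of the mouse pro-epicardial organ at embryonic day 9.5. The set was given by name and held 47 genes, all of which matched a line of the deposited table of 30323 genes. All cells came from C57BL/6 embryos that carried Tbx18Cre and the membrane reporter mTmG, were sorted singly by flow cytometry and received no treatment. The label of pro-epicardial cells therefore rests on Cre driven by Tbx18 and on the sort. RNA was amplified from its polyA tail as full-length cDNA (SMARTSeq V4) and made into Nextera XT libraries. Cells were divided by 2 fixed marks into 34 cells with at least 5 counts of Lhx9, a LIM homeobox factor, 9 cells with at least 5000 CPM (counts as a share of the cell's total, on a common scale) of Actc1, the cardiac alpha-actin, and 31 other cells, and no cell met both marks. No embryo or litter is named in the labels, so the 74 cells count as 1 sample. Cells were therefore compared without any test. The SD over cells is given beside a mean as the spread between cells, not as an error of the mean. Shares of cells carry 95% Clopper-Pearson (exact) intervals, which cover counting error only.

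Replication begins in G1, when the origin recognition complex, Cdc6 and Cdt1 load the Mcm2 to Mcm7 helicase onto origins, a step called licensing. On entry into S phase, with cyclin E among the kinases' partners, Cdc45 and the GINS complex join the helicase, and polymerase alpha-primase, replication factor C, the Pcna clamp and the polymerases delta and epsilon assemble at the fork. Ribonucleotide reductase, thymidylate synthase and dUTPase supply the precursors, while CAF-1, Uhrf1 and Dnmt1 rebuild chromatin and its methylation behind the fork. Many of these genes are targets of E2F factors. Top2a, a topoisomerase whose transcript is most abundant from late S phase to mitosis, served as the reference gene.

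The cells had 216177 to 2618538 counts, with medians of 810674 in Lhx9 cells, 808142 in Actc1 cells and 994986 in other cells. The share of mitochondrially encoded counts had medians of 1.94%, 2.48% and 2.13% in the same order. No pair of cells had identical values. Of 12 pro-epicardial markers, 11 reached detection in 50% or more of Lhx9 cells, 7 of other cells and 3 of Actc1 cells. Of 12 cardiomyocyte markers, the numbers were 5, 6 and 10. The summed cardiomyocyte markers lay between 19176 and 68976 CPM in Actc1 cells. They reached at most 13148 CPM in other cells and 6634 CPM in Lhx9 cells. Actc1 is 1 of these 12 markers and also set the state, so the mark fixed part of this difference. Actc1 alone was 8840 to 29645 CPM in Actc1 cells. With that limit, the Actc1 cells went against the pro-epicardial label by both marker lists. They are called Actc1 cells below. No erythroid, leukocyte or hepatoblast marker reached 50% of cells in any state. Of 7 endothelial markers, 2 reached it in Lhx9 cells, 2 in other cells and 1 in Actc1 cells.

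Replication genes were found throughout the sample. Detection required at least 5 counts in a cell, and 45 of the 47 genes met this in 50% or more of the 74 cells, against 26.2% of all genes in the table. Genes with 5 or more counts in at least 10% of cells formed the filtered set of 11511, and all 47 members passed. Every cell had Mcm7, Pcna, Rfc3, Rfc4, Pold2, Rpa1, Rrm1, Dut, Slbp and Dnmt1, which makes 10 genes detected in all 74 cells. The 2 exceptions were Rfc1, the large subunit of the clamp loader, in 27 cells (36.5%, interval 25.6% to 48.5%), and Ung, the glycosylase that removes uracil from DNA, in 36 cells (48.6%, interval 36.9% to 60.6%).

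**Figure D1:**
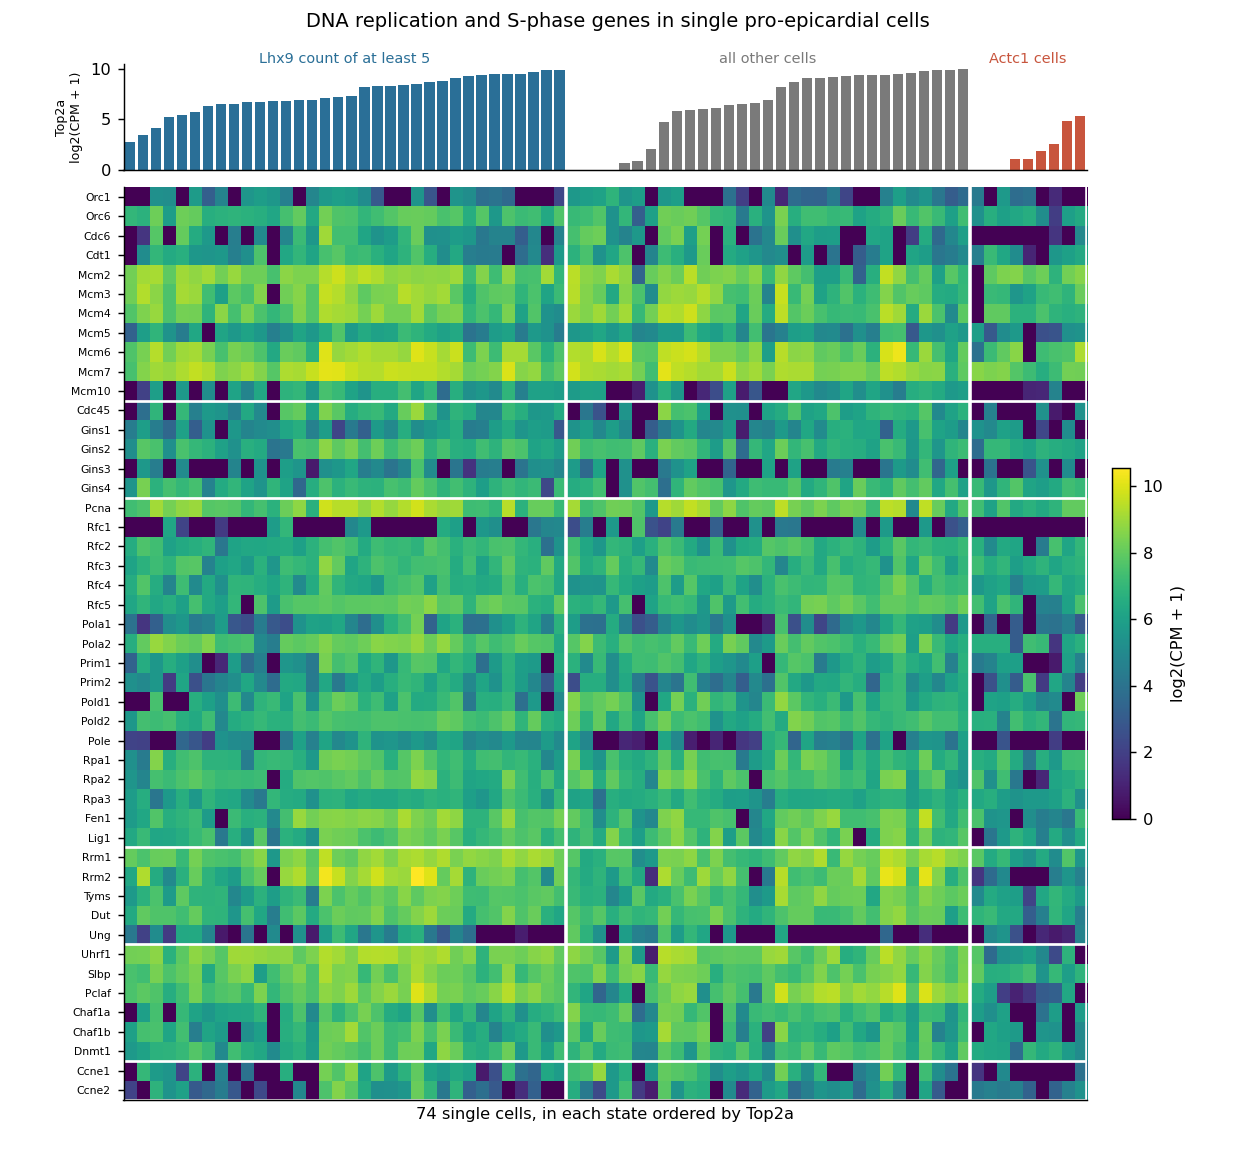
Heat map of log2(CPM + 1) for the 47 genes (rows, grouped by role from licensing at the top to cyclin E at the bottom) in 74 cells (columns, grouped by state and ordered by Top2a, whose log2(CPM + 1) is the bar above each column). The 9 Actc1 cells on the right are dark across most rows, and the Ung row is dark in the cells with the highest Top2a of both larger groups.

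Levels between genes were compared per kilobase of the longest APPRIS principal transcript, as means over all 74 cells, which pool states of different level. Pcna, the sliding clamp, had the highest mean at 227 CPM per kb, followed by the helicase subunits Mcm7 at 173 and Mcm6 at 146 CPM per kb, Rrm2 at 144 and Pclaf, a Pcna-binding protein, at 139 CPM per kb. At the other end were Orc1 at 7.35, the catalytic subunit Pole at 3.91 and Rfc1 at 3.39 CPM per kb. By the median over cells Pcna at 177 and Mcm7 at 170 CPM per kb were still highest, Rpa3 at 126 came before Mcm6 at 119, and Rrm2 was at 88.2 CPM per kb. The median of the 47 genes was 58.3 CPM per kb, against 9.95 CPM per kb over 11440 filtered genes with a length, and 41 of the 47 lay above the median of the filtered genes. Long transcripts had lower values per kb, with a rank correlation (Spearman's rho) across genes of -0.542 in the set and -0.547 in all 11440 genes.

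Subunits that work in equal number in the protein complex did not have equal transcript levels. In the MCM hexamer, Mcm5 was at 16.8 CPM per kb, whereas Mcm4 was at 81.1, Mcm3 at 93.1 and Mcm2 at 104 CPM per kb. In the clamp loader, Rfc1 at 3.39 and Rfc2 at 22.9 CPM per kb were below Rfc5 at 59.8, Rfc4 at 92.4 and Rfc3 at 103 CPM per kb. In GINS, Gins3 was at 9.90 and Gins4 at 95.3 CPM per kb. In ribonucleotide reductase, the regulated subunit Rrm2 was at 144 and the large subunit Rrm1 at 79.2 CPM per kb. These orders depend on which transcript is taken for the length and on how evenly reads cover it, and neither was tested.

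Reads that a copy of a gene could share were checked for Pcna, whose pseudogene lines Pcna-ps1 and Pcna-ps2 held 0 and 22 counts over all cells.

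Cell-to-cell spread differed widely between members. Pold2, an accessory subunit of polymerase delta, lay between 15.5 and 376 CPM with a median of 155 CPM, and its coefficient of variation (SD over mean) was 0.462. Rpa3, the small subunit of the single-strand binding protein, had the smallest coefficient, 0.405, and Mcm7 had 0.470. Cdc6, the loader of the helicase, lay between 0 and 523 CPM with a median of 34.8 CPM and a coefficient of 1.41, and Ccne2, cyclin E2, between 0 and 388 CPM with a median of 20.3 CPM and a coefficient of 1.52. Ung had a coefficient of 1.64 and Rfc1 the largest, 2.04. Of the 47 genes, 46 had a rho with the total count of the cell between -0.3 and 0.3.

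The genes moved together from cell to cell. Across the 1081 pairs of members the median rho over 74 cells was 0.365, against 0.0055 over all pairs of filtered genes, and 23.8% of member pairs reached 0.5, against 0.0456% of all pairs. Without the Actc1 cells the median over pairs was 0.313, with 15.4% of pairs at 0.5 or more. All values come from the same 74 libraries and share each cell's depth, and they are given as a description. The closest pairs joined different roles: Mcm4 with Chaf1b, the middle subunit of CAF-1, at 0.775, Rrm1 with Pclaf at 0.761 and Tyms with Pclaf at 0.747.

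Complexes differed in how closely their transcripts followed each other. The 15 pairs within the MCM hexamer lay between 0.488 and 0.745 with a median of 0.633, and 14 of them reached 0.5. CAF-1 (Chaf1a with Chaf1b) had 0.598 and ribonucleotide reductase (Rrm1 with Rrm2) had 0.645. Pairs within replication factor C had a median of 0.150 and ran from -0.103 to 0.430, and pairs within GINS had a median of 0.157. The hexamer kept a median of 0.636 in the 65 cells outside the Actc1 state.

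For each cell the mean of log2(CPM + 1) over the 47 genes is called the member level. The member level had a median of 6.25 and ran from 3.39 to 7.90. Its rho was -0.096 with the total count, 0.277 with the number of genes detected and -0.392 with the mitochondrial share, whose part in the results was not tested. Each gene was then compared with the level of the other 46. Fen1, the flap endonuclease of Okazaki fragments, had the highest rho, 0.807, followed by Chaf1b at 0.804, Pcna at 0.797, Orc6 at 0.795 and Rrm2 at 0.781. Gins4 at 0.132 and Rfc1 at 0.070 were lowest. In all, 44 of 47 members had a rho of at least 0.3, against 6.14% of filtered genes that are not members. The third below that mark was Orc1, at 0.234.

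Promoter windows were examined because the members moved together. Sequences were taken from RefSeq (GRCm38.p6) and span 250 bases before to 50 bases after each start site, and 39 of the 47 members had an entry. The letters TTTCCCGC, TTTCGCGC, TTTGGCGC and TTTGCCGC, forms of the E2F site, were searched on both strands, and matches may overlap. They were present in 15 of 39 members (38.5%), against 2.6% of 27025 genes with windows of the same length. The box CCAAT, also on both strands, was present in 26 of 39 members (66.7%), against 41.1% of genes. Both backgrounds hold all genes with an entry, whether or not they were detected in these cells. In 38 of 47 member windows the 40 bases after the start site were in an annotated transcript of the gene. Some start sites, such as that of Dnmt1, lie inside the annotated gene. A match describes letters in the window and not a bound factor.

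The median rho to the level of the other members was 0.652 in the 15 with a match and 0.633 in the 24 without. The median rho with Top2a was 0.050 and 0.240, and the median log2 ratio of Actc1 cells to other cells was -1.17 and -1.46. The 15 genes were Cdc6, Cdt1, Orc1, Mcm3, Mcm5, Mcm6 and Mcm7 of licensing, Gins3, Pola1, Pold1, Rfc3 and Lig1 of the helicase and fork, and Uhrf1, Dnmt1 and Pclaf. None of the nucleotide supply genes with an entry (Rrm1, Rrm2, Tyms, Dut and Ung) had a match. Printed to show where the letters lie are 4 stretches with at most 10 bases of annotated exon, from 200 bases before the RefSeq start site to 10 bases after it, 5′ to 3′ on the strand of the gene, with the E2F letters of either strand in capitals. They are Mcm5 (chr8:75109309-75109518, plus strand), Mcm6 (chr1:128359696-128359905, minus strand), Pola1 (chrX:93632146-93632355, minus strand) and Uhrf1 (chr17:56304113-56304322, plus strand). In Mcm5 the 2 matches overlap on opposite strands, and in Mcm6 there are 3 matches, of which a pair overlaps.
Mcm5: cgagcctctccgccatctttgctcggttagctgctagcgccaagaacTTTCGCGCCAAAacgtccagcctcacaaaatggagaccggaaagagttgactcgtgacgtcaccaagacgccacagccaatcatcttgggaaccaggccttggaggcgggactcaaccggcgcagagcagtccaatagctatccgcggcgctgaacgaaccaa
Mcm6: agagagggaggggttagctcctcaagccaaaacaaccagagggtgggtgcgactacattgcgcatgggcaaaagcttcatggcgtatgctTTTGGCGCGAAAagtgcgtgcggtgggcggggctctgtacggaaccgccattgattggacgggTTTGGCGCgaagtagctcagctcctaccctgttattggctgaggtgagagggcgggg
Pola1: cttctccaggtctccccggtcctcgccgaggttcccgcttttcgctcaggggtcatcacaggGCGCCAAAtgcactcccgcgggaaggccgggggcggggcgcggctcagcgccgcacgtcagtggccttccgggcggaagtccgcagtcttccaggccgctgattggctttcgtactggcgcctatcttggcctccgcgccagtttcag
Uhrf1: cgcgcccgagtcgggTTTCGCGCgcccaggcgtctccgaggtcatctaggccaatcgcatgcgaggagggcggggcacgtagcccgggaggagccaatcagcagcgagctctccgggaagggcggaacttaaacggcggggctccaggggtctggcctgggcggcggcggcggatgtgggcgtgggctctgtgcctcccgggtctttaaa

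The relation to Top2a differed from gene to gene, with wide overlap between the roles. Top2a itself ran from 0 to 972 CPM with a median of 115 CPM. Over 74 cells 18 of the 47 members had a rho of at least 0.3 with Top2a, against 6.06% of filtered genes, and 1 member, Ung, was at -0.3 or lower, against 1.75%. Without the Actc1 cells, in which Top2a was at most 38.4 CPM, the numbers were 13 members (background 4.83%) and 5 members (background 1.46%). The cells share their libraries and depth in all these values. The member level as a whole had a rho of 0.347 with Top2a over 74 cells and 0.132 over the 65 cells outside the Actc1 state.

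**Figure D2:**
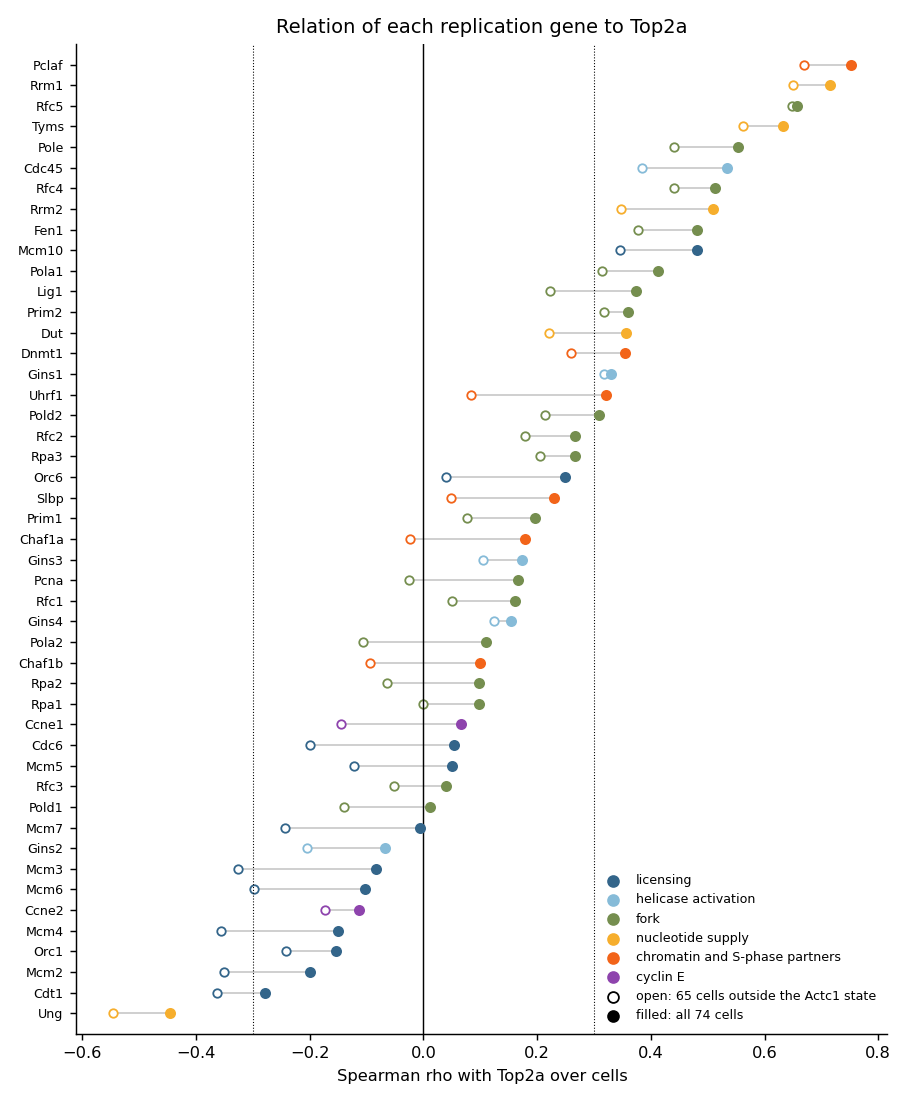
Spearman rho of each of the 47 genes with Top2a, over 74 cells (filled) and over the 65 cells outside the Actc1 state (open), coloured by role, with dotted lines at -0.3 and 0.3. Pclaf (0.751) and Rrm1 (0.715) are at the top and Ung (-0.446) and Cdt1 (-0.278) at the bottom, and leaving out the Actc1 cells moves the values to the left.

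Licensing genes were little or inversely related to Top2a. Their median rho was -0.084, against 0.038 over all filtered genes. Below 0 were 7 of 11, of which Mcm7 at -0.0052 was close to 0. Mcm10, which acts at helicase activation and elongation, was the one gene of the group above 0.3, at 0.480. Cdt1, the licensing factor degraded in S phase, had -0.278, Mcm2 had -0.200, Orc1 had -0.153 and Mcm4 had -0.150. Outside the Actc1 state Cdt1 was at -0.364, Mcm4 at -0.356, Mcm2 at -0.351 and Mcm3 at -0.326. Of the 6 hexamer genes 5 were below 0 over 74 cells, and all 6 were when every cell was reduced to 354002 counts, with 8 shallower cells left out. In the reduced cells Mcm5 at -0.0065 and Mcm7 at -0.013 were close to 0.

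Nucleotide supply genes had the highest median of single-gene values, 0.509, and 4 of 5 were above 0.3: Rrm1 at 0.715, Tyms, thymidylate synthase, at 0.632, Rrm2 at 0.509 and Dut, dUTPase, at 0.357. The exception was Ung (ENSMUSG00000029591, chromosome 5, 114130386 to 114139323, GRCm38) at -0.446, or -0.545 without the Actc1 cells. Ung and Dut both keep uracil out of DNA, Dut by destroying dUTP and Ung by excision. When the genes of a role were averaged in each cell before the comparison, nucleotide supply with Ung in it had a rho of 0.244 with Top2a, below fork genes at 0.491, chromatin partners at 0.458 and helicase activation at 0.435, and above licensing at 0.078 and cyclin E at 0.0054. Without the Actc1 cells these values were 0.0092, 0.339, 0.285, 0.290, -0.193 and -0.165.

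Among fork genes none of the 18 was below 0 over 74 cells, the median was 0.266 and 8 reached 0.3. Without the Actc1 cells 5 of the 18 were below 0, the median was 0.192 and 6 reached 0.3. Over 74 cells the clamp loader subunits Rfc5 at 0.658 and Rfc4 at 0.513 and the polymerase Pole at 0.553 were highest. Rfc3 at 0.040 and Pold1 at 0.011 were lowest. Pcna, one of the best followers of the member level, had 0.166. In the helicase group Cdc45 had 0.534 and Gins2 had -0.068.

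Chromatin and S-phase partners included the gene closest to Top2a, Pclaf, at 0.751, or 0.670 without the Actc1 cells. Dnmt1, the maintenance methyltransferase, had 0.355 and Uhrf1, its guide to hemimethylated DNA, had 0.322, which was 0.083 without the Actc1 cells. Slbp, the histone mRNA binding protein, had 0.230 and Chaf1b had 0.100. The cyclins Ccne1 and Ccne2 had 0.066 and -0.114, or -0.145 and -0.173 without the Actc1 cells.

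**Figure D3:**
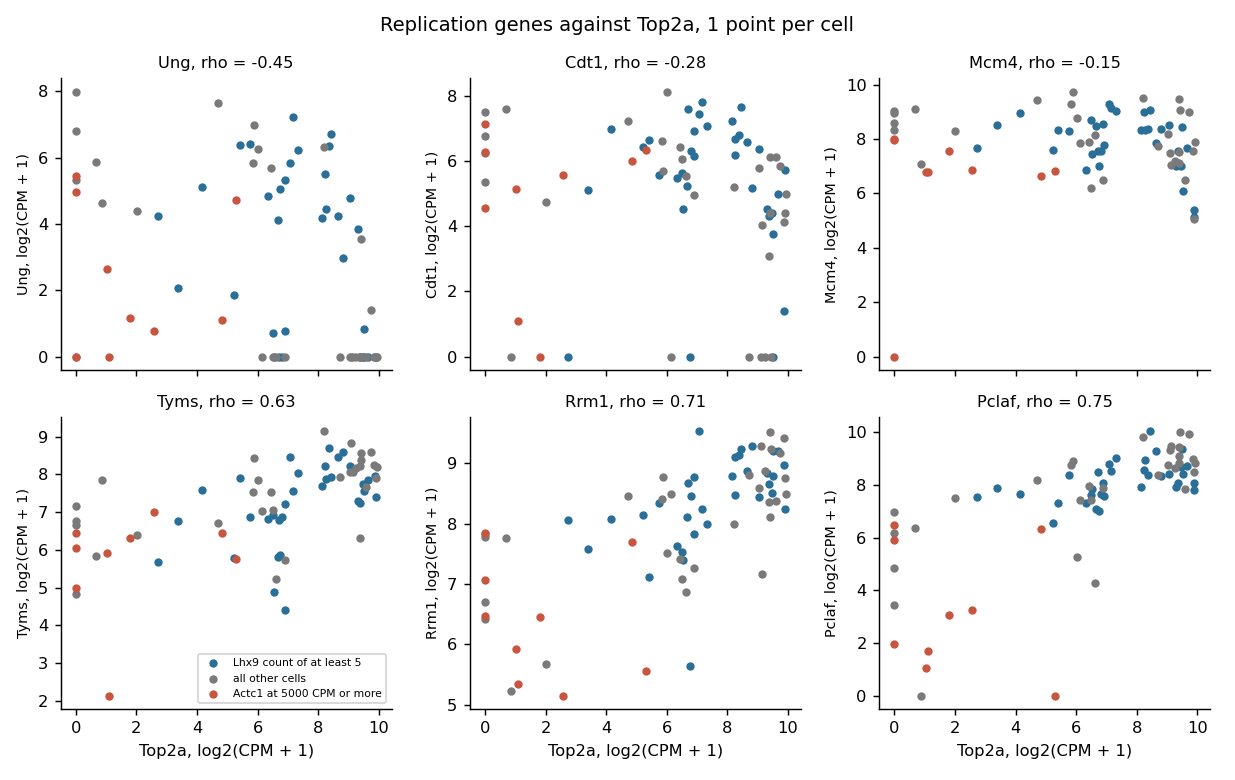
Levels of Ung, Cdt1, Mcm4, Tyms, Rrm1 and Pclaf against Top2a, both as log2(CPM + 1), 1 point per cell, coloured by state. The upper panels have negative rho (-0.446, -0.278 and -0.150) and the lower panels positive rho (0.632, 0.715 and 0.751), and Ung is at 0 in most cells at the right edge.

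The extremes of Ung and Top2a were held by different cells. In the 10 cells with the highest Top2a (727 to 972 CPM), Ung was 0 in 8 cells and at most 1.63 CPM in the others. In the same cells Ccne2 was 0 in 6, Cdc6 had a median of 25.2 CPM and Pclaf a median of 389 CPM. In the 10 cells with the highest Ung (78.7 to 253 CPM), Top2a lay between 0 and 344 CPM with a median of 55.5 CPM. There Ccne2 was above 0 in every cell with a median of 86.4 CPM, Cdc6 had a median of 215 CPM and Pclaf a median of 331 CPM. The cell P1-46 had the highest Ung, 253 CPM, with Top2a at 0, Cdc6 at 173, Cdt1 at 108 and Pclaf at 124 CPM. The cell P1-24 had the highest Top2a, 972 CPM, with Ung and Ccne2 at 0, Cdc6 at 60.7, Cdt1 at 31.2 and Pclaf at 455 CPM. Both were from the other cells, and both had many replication genes, with member levels of 7.05 and 6.25. These cells were chosen by their values, so the contrast is a description.

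A principal component analysis of the same 47 genes in the same cells gave the same 2 directions, and is not separate support for them. The first component held 35.3% of the variance, had loadings of the same sign for all 47 genes and a rho of 0.990 with the member level. The second held 8.39% and had a rho of 0.741 with Top2a, which was not among the 47 genes, or 0.800 over the 65 cells outside the Actc1 state. Its sign was set so that this value is positive. At its positive end were Pclaf, Rrm1, Rfc4, Gins1 and Pole, and at its negative end Ung, Mcm4, Mcm2, Cdt1 and Ccne2. Computed from the 65 cells alone, the second component held 9.91% of the variance and had a rho of 0.846 with Top2a.

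Lhx9 cells and other cells had replication genes within 2-fold of each other. A gene was counted as different when the ratio of mean CPM, with 1 CPM added to each mean, reached 2-fold. None of the 47 members was 2-fold higher in Lhx9 cells, against 4.56% of the 11509 genes compared, and none was 2-fold lower, against 7.03%. The median log2 ratio of the members was 0.02, against -0.06 over all genes, with 25 members above 0 and 22 below. Of all genes compared, 5143 were above 0 and 6366 below. Reducing all cells to 354002 counts turned the split of the members to 18 above and 29 below.

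The members at the ends of the comparison of Lhx9 cells with other cells overlapped broadly. Mcm10 was 63.2 ± 49.1 CPM in 34 Lhx9 cells and 41.8 ± 34.6 CPM in 31 other cells (SD over cells), a log2 ratio of 0.59. Pold1, the catalytic subunit of polymerase delta, was 96.5 ± 75.8 CPM in Lhx9 cells and 156 ± 110 CPM in other cells, a log2 ratio of -0.68. Both differences were smaller than the SD over cells. The median member level was 6.39 in both states, with a range from 4.15 to 7.90 in Lhx9 cells and from 4.84 to 7.52 in other cells. Top2a had medians of 151 and 119 CPM.

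**Figure D4:**
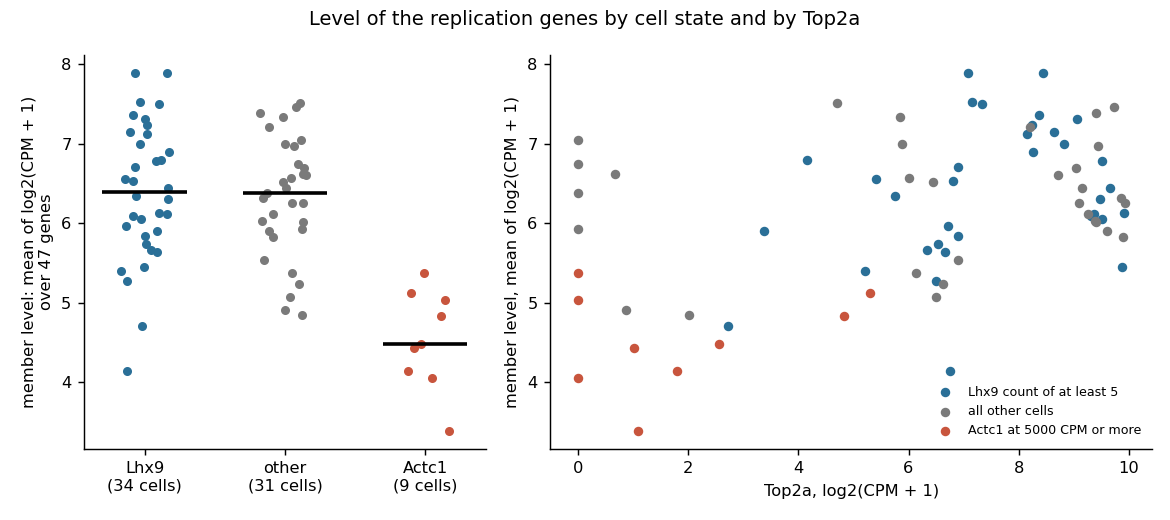
Member level (mean of log2(CPM + 1) over 47 genes) of each cell by state, with the median as a bar (left), and against Top2a as log2(CPM + 1) (right). The Actc1 cells have a median of 4.49 against 6.39 in both other states, and other cells with equally low Top2a reach up to 7.52.

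Actc1 cells had lower replication genes. Their member level ran from 3.39 to 5.38 with a median of 4.49, and 26 of 31 other cells and 31 of 34 Lhx9 cells were above the highest Actc1 cell. Against other cells 33 of the 47 members were at least 2-fold lower, against 16.4% of all genes compared, and none was 2-fold higher, against 7.36%. Against Lhx9 cells 31 members were 2-fold lower (background 16.8%) and none was higher (background 10.7%), and 30 genes were lower in both. The median log2 ratio was -1.23 against other cells and -1.30 against Lhx9 cells, where all genes had -0.18 and -0.14. All 47 ratios were below 0 in both comparisons, also with scran size factors and with cells reduced to equal counts. Of the 11509 genes compared, by CPM, 7082 were below 0 against other cells and 6604 against Lhx9 cells. By medians in place of means, Mcm2, Cdt1 and Ung were higher in Actc1 cells than in other cells, with both medians of Ung below detection. Gins4 and Ccne2 were higher by medians than in Lhx9 cells. Top2a was detected in 3 of the 9 Actc1 cells, with a median of 1.14 CPM. These comparisons share the 9 cells, which also had the highest median mitochondrial share. They had the highest summed cardiomyocyte markers too, a sum that includes Actc1. The part of those in the result was not tested.

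These counts rested on the Actc1 mark. The 9 cells had 8840 to 29645 CPM of Actc1, and the 4 cells just below the mark had 3287 to 4759 CPM. Those 4 cells had member levels from 6.57 to 7.39 and Top2a from 63.7 to 678 CPM, all above the highest Actc1 cell. Rrm2 lay between 186 and 1185 CPM in them and Uhrf1 between 160 and 701 CPM. With the mark at 2000 CPM, which adds these 4 cells to the group, 6 members were 2-fold lower than in other cells and 7 lower than in Lhx9 cells. Leaving out each of the 9 Actc1 cells in turn gave 32 to 36 members lower than in other cells and 30 to 33 lower than in Lhx9 cells.

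Licensing genes split in the Actc1 cells. The loader Cdc6 (ENSMUSG00000017499, chromosome 11, 98907801 to 98923940, GRCm38) was 0 in 7 of the 9 cells, 2.11 CPM in P1-78 and 30.4 CPM in P1-14, against a median of 56.9 CPM and a highest value of 345 CPM in other cells. Its means were 3.62 ± 10.1 and 91.5 ± 109 CPM, a log2 ratio of -4.33. Mcm10 was detected in 1 of 9 cells, with means of 3.08 ± 8.37 against 41.8 ± 34.6 CPM and a log2 ratio of -3.39. Mcm2 and Cdt1 stayed close to the other cells. Mcm2 was at 0 in P1-18 and between 113 and 396 CPM in the other 8 Actc1 cells, with a mean of 258 ± 131 CPM against 301 ± 205 CPM, a log2 ratio of -0.22. Cdt1 ran from 0 to 142 CPM with a median of 47.2 CPM, against a median of 40.3 CPM in other cells, a log2 ratio of -0.18. Between these, Mcm3, Mcm4, Mcm5 and Mcm6 were all 2-fold lower than in other cells, and Mcm7 had a log2 ratio just inside that mark, 264 ± 116 against 518 ± 218 CPM. In all, 8 of 11 licensing genes were 2-fold lower.

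Of the nucleotide supply genes all 5 had 2-fold lower means, but the medians of Ung, which were near 0, went the other way. Rrm2, the subunit that limits reductase activity (ENSMUSG00000020649, chromosome 12, 24708241 to 24714146), was 0 in P1-13, P1-65 and P1-41, 2.06 CPM in P1-18 and between 11.8 and 44.8 CPM in the other 5 Actc1 cells. In other cells its median was 186 CPM and its highest value 1185 CPM, and 28 of 31 were above every Actc1 cell. Its means were 15.1 ± 16.3 and 314 ± 312 CPM, a log2 ratio of -4.29. The partner subunit Rrm1 was detected in all 9 Actc1 cells, between 34.5 and 229 CPM, with a log2 ratio of -1.62, so the 2 subunits differed in size of the difference. Tyms had -1.71 and Dut -1.41. Ung had a ratio of means of -1.51, with 11.8 ± 16.4 against 35.5 ± 62.1 CPM, but its median was 1.24 CPM in Actc1 cells and 0 in other cells. Both medians were below the 5 counts needed for detection, so their order is uncertain. It was detected in 4 of 9 Actc1 cells and 13 of 31 other cells, and 9 other cells were above the highest Actc1 cell.

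**Figure D5:**
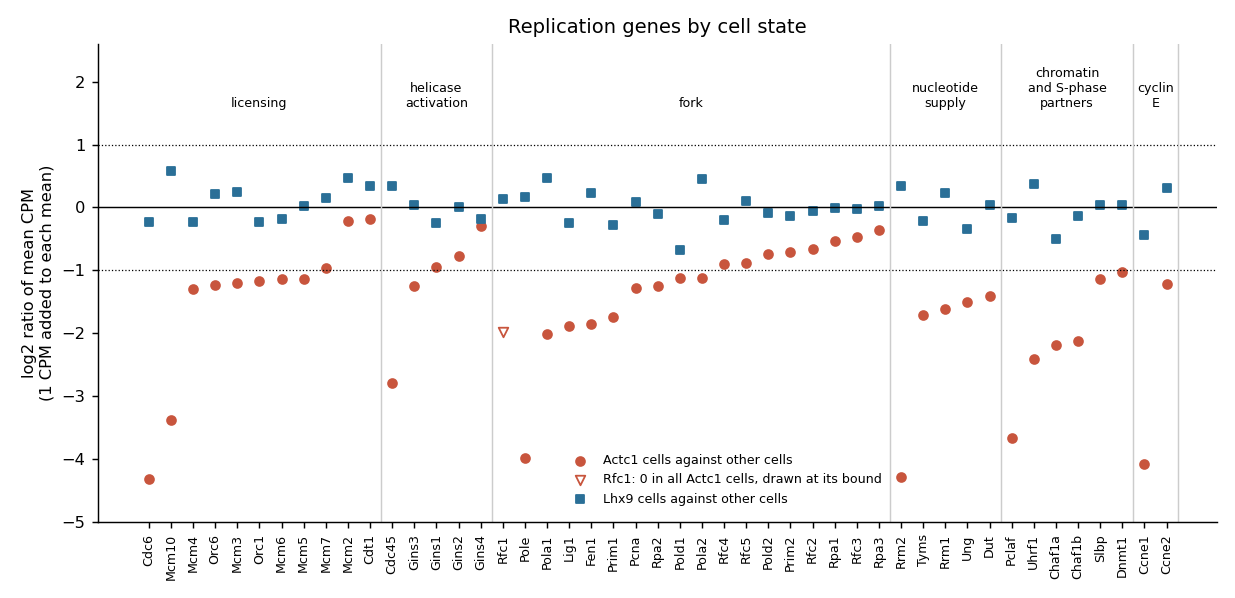
Log2 ratio of mean CPM (1 CPM added to each mean) for each of the 47 genes, in Actc1 cells against other cells (circles) and in Lhx9 cells against other cells (squares), grouped by role, with dotted lines at 2-fold. All squares lie between the lines, 33 genes are below the lower line in Actc1 cells, and the open triangle for Rfc1, at 0 in all 9 Actc1 cells, is drawn at its bound.

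All 6 chromatin and S-phase partners were 2-fold lower in Actc1 cells. Pclaf (ENSMUSG00000040204, chromosome 9, 65890237 to 65903266) was 0 in P1-14, between 1.04 and 8.46 CPM in 5 cells and 59.0, 79.2 and 88.6 CPM in P1-75, P1-35 and P1-18. Its lowest Lhx9 cell had 93.2 CPM, so all 34 Lhx9 cells were above all 9 Actc1 cells, the 1 member without overlap, against 0.0521% of all genes. No member was without overlap against other cells, where 0.00869% of all genes were. In other cells Pclaf ran from 0 to 1040 CPM with a median of 331 CPM, and the means of 27.7 ± 36.9 and 363 ± 288 CPM gave a log2 ratio of -3.67. Uhrf1 was 58.5 ± 69.8 against 316 ± 181 CPM, a log2 ratio of -2.41, and Dnmt1 was 73.5 ± 36.7 against 151 ± 72.8 CPM, a log2 ratio of -1.03. The cyclins differed from each other: Ccne1 was detected in 2 of 9 Actc1 cells and had a log2 ratio of -4.08, while Ccne2 was detected in 8 of 9 and had -1.21.

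At the fork 10 of 18 genes were 2-fold lower, and in the helicase group 2 of 5. Rfc1 was listed at 0 in all 9 Actc1 cells and detected in 15 of 31 other cells, at a mean of 17.4 CPM. Set at 3 counts per cell as the floor, its mean was at least 3.97-fold lower than the mean of other cells. That bound is for means only and leans on 1 other cell, P1-32, at 202 CPM. The median of other cells was 3.34 CPM, below the floor of 4.39 CPM. A result of 0 of 9 cells with a count allows, taken as 3 cells of 9, a share of up to 33.3%. Pole was detected in 0 of 9 Actc1 cells and 18 of 31 other cells, with means of 0.945 ± 2.01 and 29.7 ± 34.7 CPM. Cdc45, which joins the helicase at firing, was detected in 3 of 9 and had a log2 ratio of -2.79. Fork genes detected in all 9 Actc1 cells included Pcna, with 67.5 to 261 CPM against a median of 299 CPM in other cells and a log2 ratio of -1.28. The clamp loader subunit Rfc3 at -0.47 and the single-strand binding subunit Rpa3 at -0.36 were closest to the other cells, as was Gins4 in the helicase group at -0.29.

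Further fork genes are given with their values. Lig1, the ligase that seals Okazaki fragments, ran from 0 to 113 CPM in Actc1 cells with a median of 51.2 CPM, against a median of 170 CPM in other cells, and 21 of 31 other cells were above every Actc1 cell. Its means were 53.5 ± 37.5 and 201 ± 128 CPM. Fen1 had means of 57.9 ± 64.0 and 212 ± 162 CPM. Within polymerase alpha-primase, which lays the primers, the sizes differed: the catalytic subunit Pola1 had a median of 7.29 CPM against 34.2 CPM and a 4.04-fold lower mean, and the primase subunit Prim1 was 28.6 ± 27.7 against 97.9 ± 58.6 CPM, 3.34-fold lower. Pola2 was 2.17-fold lower, and Prim2 was 1.63-fold lower with 1 Actc1 cell at 181 CPM, so its values overlapped those of 30 of the 31 other cells.

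The single-strand binding protein and CAF-1 also had subunits of unequal difference. Rpa2 was 77.2 ± 71.0 CPM in Actc1 cells and 184 ± 108 CPM in other cells, 2.37-fold lower, whereas Rpa1 was 1.45-fold and Rpa3 1.28-fold lower. Both CAF-1 subunits, which deposit histones behind the fork, were lower by more than 4-fold. Chaf1a ran from 0 to 65.4 CPM in Actc1 cells, below 25 of the 31 other cells, and Chaf1b ran from 0 to 77.6 CPM, below 20 of the 31.

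Most other cells with equally low Top2a had higher replication genes than Actc1 cells. Top2a was no higher than in the highest Actc1 cell, 38.4 CPM, in 8 other cells. Their member level ran from 4.84 to 7.52 with a median of 6.50. Among these 8 cells, P1-31 at 4.84 and P1-32 at 4.92 lay within the range of the Actc1 cells. Compared with these 8 cells 31 members were 2-fold lower in Actc1 cells, against 17.1% of all genes, and none was higher, against 12.5%, and 29 of the 33 genes counted above were among them. Cdc6 was 139 ± 123 CPM in the 8 cells and Ccne1, cyclin E1, 158 ± 151 CPM, against 3.62 and 5.32 CPM in Actc1 cells. Pclaf, the gene closest to Top2a, was 98.7 ± 99.2 CPM in the 8 cells and 27.7 CPM in Actc1 cells. The 4 Lhx9 cells with such low Top2a had a median member level of 5.65 and ran from 4.71 to 6.79, and P1-38 at 4.71 lay within the range of the Actc1 cells. Gins4 was higher in Actc1 cells than in the 8 cells, at 113 against 98.1 ± 76.0 CPM.

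Other genes of replication followed the members in part. From a list of 44, all passed the filter, and 35 had a rho of at least 0.3 with the member level, against the 6.14% given above. The median was 0.496. Exo1, an exonuclease of repair, had 0.780, and Gmnn, geminin, the inhibitor of Cdt1, had 0.778. Lowest were Mcm9 at 0.087 and the origin subunit Orc4 at 0.019. In Actc1 cells 20 of the 44 were 2-fold lower than in other cells, against 16.4% of all genes, and 1, Mcm9, was higher, against 7.36%.

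Regulators of S-phase entry followed less closely. Of 28 listed, 25 passed the filter, and Cdkn1a, Cdkn2a and Cdkn2c did not. Of these 25, 10 had a rho of at least 0.3 with the member level, against 6.14% of genes, and the median was 0.237. Cdc25a, the phosphatase that activates Cdk2, had 0.608, E2f7 had 0.584 and Cdk4 had 0.563. Lowest were the inhibitor Cdkn1b at -0.124 and the pocket protein Rbl2 at -0.204. Of these regulators, 9 were 2-fold lower in Actc1 cells than in other cells (background 16.4%). The remaining calls between states were few and near the share of all genes. In Actc1 cells 2, Rbl2 and Myc, were higher than in other cells (background 7.36%). In Lhx9 cells 2, Ccnd1 and Myc, were 2-fold higher than in other cells (background 4.56%) and 1, E2f2, was lower (background 7.03%). Rbl2 was detected in only 9 of the 74 cells and E2f2 in 10. Ccnd1, Myc and E2f2 are named after their values were seen.

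Genes of mitosis were related to Top2a more than to the member level. In a list of 26, the 25 without Top2a itself had a median rho of 0.755 with Top2a, and 23 reached 0.3, against 6.06% of filtered genes. With the member level the median of all 26 was 0.081, and 4 reached 0.3, against 6.14% of genes. Ttk, a spindle checkpoint kinase, had 0.408, Cdk1 had 0.390 and Top2a 0.347, whereas cyclin B2 (Ccnb2) had -0.314 and the centromeric histone Cenpa -0.385. In Actc1 cells 23 of the 26 were 2-fold lower than in other cells, against 16.4% of all genes.

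Among the genes closest to the member level of 8889 candidates, over 74 cells, were Atad2 at 0.819, Exo1 at 0.780, Gmnn at 0.778, Tk1 at 0.759, Tipin at 0.758, Mybl2 at 0.737, Rad51ap1 at 0.733, Dtymk at 0.692 and Hist1h2ap at 0.686. Candidates had a mean of at least 10 CPM. Tk1 and Dtymk make nucleotides, and Tipin belongs to the fork protection complex. Hist1h2ap has near-identical histone paralogs, so its reads are uncertain. Its rho with Top2a, 0.751, was higher than that with the member level, unlike those of the other genes named here.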

How the data were processed

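The deposited table holds estimated counts, whole numbers for each gene in 74 cells. They were made with kallisto per the submitters' processing notes, which give no version and name build hg38 although every gene identifier is a mouse Ensembl identifier. Rounding and summing to genes are steps not given in the sources used. Symbols, positions and lengths came from GENCODE M21, which matched 29936 of 30323 identifiers. The 387 others held 0.346% of counts.

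Counts were scaled to CPM, and log2(CPM + 1) was used for means. The members, states, gene lists and marks were chosen with earlier results of these data known. All 47 members could be named, and of other genes the 10 closest to the member level and the 3 highest and 2 lowest of each list. A gene that this rule names is not reported here. Called means 2-fold between mean CPM or a rho of 0.3, since cells are not replicates and no test was made. All cells were kept, and no doublet caller was run on these singly sorted cells. The code was tested on simulated data. Alternatives changed the detection count, filter, pseudocount, fold and rho marks, summary, scaling (scran or thinning) and state marks. Software was R 4.3.3 with scran 1.30.0, and Python 3.11.15 with SciPy 1.17.1, pandas 2.3.3, numpy 2.4.6 and matplotlib 3.10.9.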

Additional observations from a re-analysis of the deposited data

How the results depend on the processing

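Across 135 alternative values of 15 results, 127 stayed within the limits set for them and 8 moved. None was labelled reversed, but that label was not open to counts or to values smaller than their own limit. Both medians for Lhx9 cells against other cells were that small, and both changed sign with cells reduced to equal counts. The median log2 ratio went from 0.02 to -0.08, and the difference in median member level from 0.0054 to -0.145. The limits were 1.5 times for a count, and for other values the SD over members, cells or pairs, or the 95% interval of a correlation, which are wide. With the rho mark at 0.5, 8 members were related to Top2a in place of 18. Against other cells, Lhx9 cells had 1 member higher and 1 lower at a 1.5-fold mark, and 1 higher and 2 lower by the ratio of medians, in place of 0. By the ratio of medians 1 member, Ung, was higher in Actc1 cells than in other cells, opposite to its ratio of means. With the Actc1 mark at 2000 CPM, which gives 13 Actc1 cells, 6 members were lower than in other cells and 7 lower than in Lhx9 cells. The median log2 ratio of members was then -0.40 and -0.45, in place of -1.23 and -1.30. These shifts at the 2000 CPM mark came with the 4 cells added, whose levels are given with the result. Without the Actc1 cells the rho of the member level with Top2a was 0.132 in place of 0.347.

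No paired analysis was possible because the cells form 1 group. Cells without an embryo label leave differences between embryos unmeasured. At these depths 3 counts in a shallow cell are several CPM, so the levels of Rfc1, Pole and Ung near 0 are uncertain. Mean ratios rest on few cells in the Actc1 state. The comparison with cells of low Top2a and the values without Actc1 cells were chosen after seeing the data.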
